A study of Mus musculus with 4 samples.

Results

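The subject is a set of 10 mouse genes of prostaglandin and leukotriene synthesis, Ptgs1, Ptgs2, Hpgds, Ptgds, Ptges, Alox5, Alox5ap, Lta4h, Ltc4s and Alox15, taken by symbol from the 31053 genes of the count tables. Single-cell RNA was sequenced from CD45+CD11b+ cells that had been sorted from ovaries of virgin C57BL/6J mice at 15 months and at 3 months of age, with no other treatment named. Each age had 3 hashtag pools (suspensions that each carried a barcoded antibody), which went together through a single sort and a single library, so age and library cannot be told apart. The protocol gives harvest ages of 14 to 17 months and 5 animals for the older group, with 1 pool from 1 mouse, against 2 to 3 months and 6 animals in pairs for the younger. The series text gives 2 mice for every pool. The pool was the unit of replication (n = 3 at each age), and p-values measure the spread between pools inside a library.

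Both kinds of mediator are made from arachidonic acid that phospholipases free from membranes. The cyclooxygenases Ptgs1 and Ptgs2 turn it into prostaglandin H2, from which Hpgds and Ptgds make prostaglandin D2 and Ptges makes prostaglandin E2. The 5-lipoxygenase Alox5, helped by its activating protein Alox5ap, makes leukotriene A4, which Lta4h hydrolyses to leukotriene B4, a neutrophil attractant, and Ltc4s joins to glutathione to give leukotriene C4. Alox15 is the 12/15-lipoxygenase of mouse macrophages and eosinophils. All 10 genes are protein coding in the mouse annotation (GENCODE M21, GRCm38), among them Hpgds at chr6:65117293-65144908 and Alox5 at chr6:116410077-116461178 on the minus strand of chromosome 6, and Ptgs2 at chr1:150100031-150108227 on the plus strand of chromosome 1. In the ovary, prostaglandins are known for their part in ovulation and in the regression of the corpus luteum.

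A barcode was kept with at least 500 genes, at least 1000 unique molecular identifiers (UMIs), at most 10% mitochondrial UMIs, and a top hashtag of at least 10 counts and 3 times the second. This left 4100 of 4939 barcodes at 15 months and 2181 of 3135 at 3 months, in pools of 767 to 2437 and 479 to 977 barcodes with median UMI counts of 5467 to 8595 and 6778 to 8271. The libraries held 45060166 and 27277073 gene UMIs, and they shared 3 barcodes, of which 2 were kept. Haemoglobin made up more than 1% of the UMIs in 1 kept barcode at 15 months and in 32 at 3 months. Clusters were named from marker genes, and the 10 genes were left out of the variable genes used for clustering. The sort also held classes with low levels of its own gate genes: Itgam, which encodes CD11b, was seen in 57.1% of macrophage-like barcodes and 40.7% of NK-like barcodes, but in 10.2% of cDC1-like, 16.4% of endothelial-like and 7.89% of epithelial-like barcodes. Levels are counts-per-million values (CPM), by TMM library size for pool means and by all UMIs where barcodes of several pools were summed. The 3' counts are not scaled to gene length, so levels are compared between classes and not between genes.

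**Figure D1:**
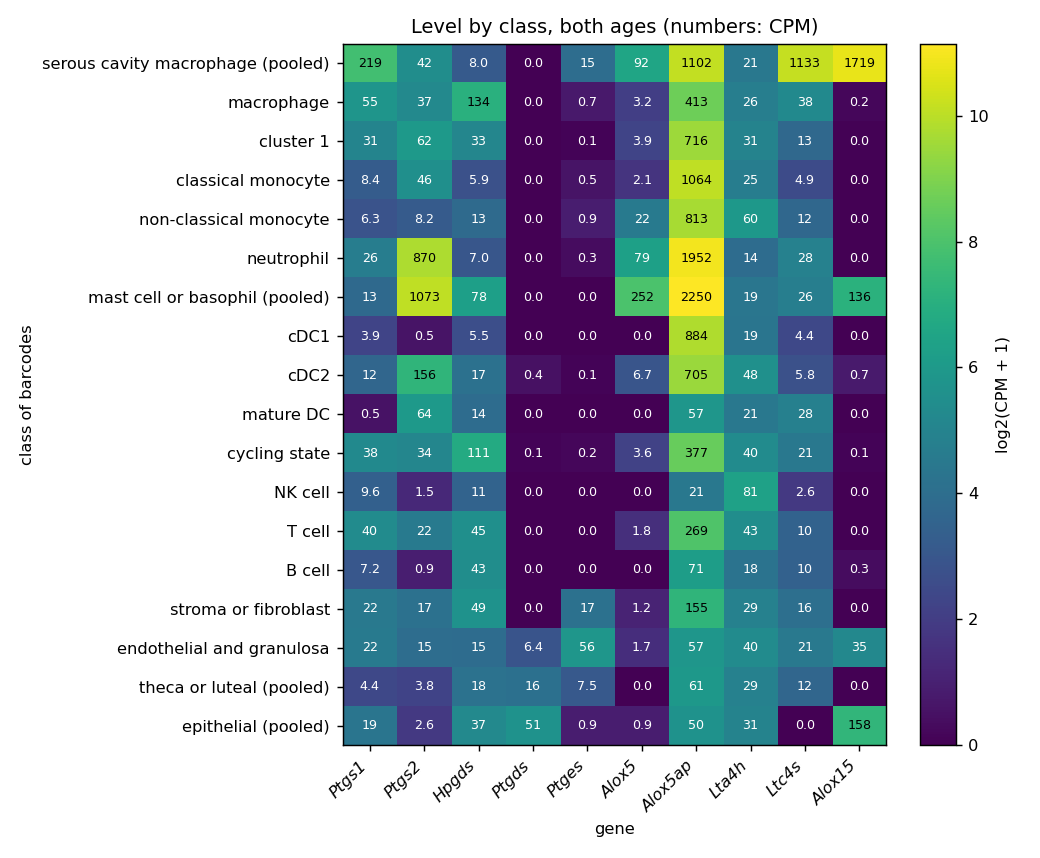
Level of each of the 10 genes (columns) in each class of barcodes (rows), printed as CPM and coloured by log2(CPM + 1). Rows are means over pools with at least 10 barcodes of the class, or, where marked pooled, all barcodes of the class summed, and red cells are not drawn. Alox15 and Ltc4s peak in the serous cavity macrophage row, Hpgds in the macrophage row, Ptgs2 and Alox5ap in the mast cell or basophil and neutrophil rows and Alox5 in the mast cell or basophil row.

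The genes differed in the class that held them. Among classes measured pool by pool, Ptgs2 and Alox5 were highest in neutrophil-like barcodes and stood above the next class in 6 of 6 pools. Their proximal promoters, the 250 bases before the start of each gene from RefSeq (GRCm38.p6), are shown because both lines can be read beside that shared level. Capitals mark matches to the C/EBP core TTNNGNAA and the PU.1 core GAGGAA, 2 factor families of the myeloid lineage, searched on both strands, with no overlap between their matches. The Ptgs2 window is chr1:150099781-150100030 on the plus strand and the Alox5 window is chr6:116461179-116461428 on the minus strand, both printed in the direction of transcription.
Ptgs2: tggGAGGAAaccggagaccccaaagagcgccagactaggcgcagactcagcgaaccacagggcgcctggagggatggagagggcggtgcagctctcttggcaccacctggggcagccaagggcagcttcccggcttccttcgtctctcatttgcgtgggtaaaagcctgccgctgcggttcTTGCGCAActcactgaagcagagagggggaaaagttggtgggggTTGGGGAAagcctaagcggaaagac
Alox5: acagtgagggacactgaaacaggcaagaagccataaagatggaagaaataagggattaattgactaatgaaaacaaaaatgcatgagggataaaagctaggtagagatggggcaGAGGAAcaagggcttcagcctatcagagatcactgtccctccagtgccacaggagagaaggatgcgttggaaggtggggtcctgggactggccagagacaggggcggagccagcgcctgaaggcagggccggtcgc
The Ptgs2 window held the PU.1 core at -247 and C/EBP cores at -69 and -25 from the start, and the Alox5 window held 1 PU.1 core at -136. Over 32851 RefSeq promoters of the same length, the C/EBP core was found in 36.8% and the PU.1 core in 23.3%. Of the 8 genes of the set with a promoter entry, 4 and 6 held them. Neither core is rare in such windows, and a match is only a match of letters.

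Ptgs2 is the inducible cyclooxygenase. In the neutrophil-like class its level was 1151, 1179 and 562 CPM in the 15-month pools, against 736, 813 and 780 CPM in the 3-month pools. The older pools thus lay on both sides of the younger ones. The neutrophil-like mean of 870 ± 244 CPM (SD, n = 6 pools) stood above that of cDC2-like dendritic cells, 156 ± 26.7 CPM, in 6 of 6 pools, and the cDC2-like level stood above the mature dendritic cell level of 63.5 ± 40 CPM in 5 of 5. Below these, cluster 1, a group led by Apoe, Ccr2 and MHC class II genes that met no class name, had 61.6 ± 30 CPM, classical monocyte-like barcodes 45.6 ± 22.9 CPM and macrophage-like barcodes 36.6 ± 10.6 CPM, neighbours that did not differ beyond their spread. NK-like barcodes had 1.46 ± 1.72 CPM. A Ptgs2 UMI was found in 55.4% of neutrophil-like barcodes, at a median depth of 2151 UMIs, and in 0.732% of NK-like barcodes, at 3533 UMIs, and in 40% and 0.488% after each barcode was thinned to 1000 UMIs. Ptgs2 is also an immediate early gene that cells can switch on during handling. The 11 immediate early and heat shock genes of the marker list summed to 15067 to 19454 CPM in neutrophil-like barcodes at 15 months and to 16702 to 18081 CPM at 3 months, and their part in the Ptgs2 level was not tested.

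Among the 39 mast cell or basophil-like barcodes, 35 of them from 15 months, Ptgs2 reached 1073 CPM (95% Poisson interval 916 to 1250 CPM, counting error only). A split made after the values were seen, at 10 UMIs of the mast cell chymase Cma1, left 9 barcodes above it and 30 below. The 166 Ptgs2 UMIs all lay in the 30 Cma1-low barcodes, 23 of which carried Mcpt8, a basophil protease. The Cma1-high barcodes had 8 Hpgds UMIs (327 CPM) and the Cma1-low barcodes 4 (30.7 CPM).

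Ptgs1, the constitutive cyclooxygenase, was highest in the serous cavity macrophage-like class, at 219 CPM (187 to 255) over 50 barcodes. In macrophage-like barcodes it had 50.9, 82.5 and 43.7 CPM in the 15-month pools, against 52.8, 31.9 and 68.3 CPM in the 3-month pools, and the ages overlapped. Inside the macrophage-like class its level depended on the cluster. Cluster 8, led by C1q genes with Pf4, Mrc1 and Fcrls, had 117 ± 19.4 CPM and cluster 0, led by C1q and MHC class II genes, had 86.3 ± 16.6 CPM, while cluster 6, led by Gpnmb, Fabp5 and Spp1 of the lipid-associated state, had 10.4 ± 2.45 CPM (SD, n = 6 pools). The highest pool of cluster 6, at 15 CPM, lay below the lowest pool of cluster 0, at 55.7 CPM. The macrophage-like Ptgs2 mean also joined unlike clusters, with 2.81 ± 3.69 CPM in cluster 8, 39.5 ± 15.4 CPM in cluster 0 and 51.3 ± 36.6 CPM in cluster 6. For Ptgs2 the highest pool of cluster 8, at 8.88 CPM, lay below the lowest pools of clusters 0 and 6, at 22.6 and 14.8 CPM.

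Hpgds, the haematopoietic prostaglandin D synthase, was found mostly in macrophage-like barcodes: 2559 of its 3888 UMIs (65.8%) lay in macrophage-like barcodes and 464 (11.9%) in the cycling class. A UMI of it was found in 60% of macrophage-like barcodes, at a median depth of 9610 UMIs, and in 2.68% of NK-like barcodes, at 3533 UMIs, or in 13.7% (95% Wilson interval 12.1 to 15.5%) and 0.244% (0.0431 to 1.37%) at 1000 UMIs each. The macrophage-like level of 134 ± 42.2 CPM exceeded the cycling level of 111 ± 86.8 CPM in 5 of 6 pools and the NK-like level was 10.6 ± 10 CPM. Across the clusters of the class Hpgds had 99.3 ± 31.8 CPM in cluster 6, 158 ± 49.7 CPM in cluster 0 and 151 ± 57.6 CPM in cluster 8, and the pools of these clusters overlapped. In serous cavity macrophage-like barcodes, where Ptgs1 was highest, Hpgds was at the NK-like level, with 6 UMIs in 50 barcodes (7.96 CPM, 2.92 to 17.3).

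Hpgds separated the ages in macrophage-like barcodes, although the difference did not pass the test across all genes. In macrophage-like barcodes it stood at 173, 160 and 179 CPM in the 15-month pools, against 84.7, 88.4 and 121 CPM in the 3-month pools. Every older pool was above every younger one. The share of all genes that separate the ages in this way was not counted, here or in any class, so a lack of overlap is a description only. The Hpgds means were 171 ± 9.37 and 97.9 ± 19.7 CPM (SD, n = 3 pools each). The log2 difference was 0.78 ± 0.15 (SE), with an adjusted p of 0.136 by edgeR's quasi-likelihood test over 8725 genes. Of those genes 0.0917% passed, and 1218 had an unadjusted p under 0.05. Over 19 alternative settings the log2 difference stayed between 0.57 and 0.96, with adjusted p from 0.000434 to 0.541, and it passed under 3: with DESeq2 (0.00764), with no filter on low counts (0.000434) and without 3-month pool 3 (0.0233). Those settings passed 69, 398 and 53 genes of any kind in the class, against 8 in the main one.

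Hpgds was also read by cluster of the macrophage-like class. In cluster 0 it was 248, 169 and 169 CPM at 15 months, against 116, 123 and 125 CPM at 3 months, with no overlap. In clusters 6 and 8 the ages overlapped, with means of 111 ± 20.1 against 87.3 ± 41.2 CPM in cluster 6 and 181 ± 42.5 against 121 ± 61.5 CPM in cluster 8. Cluster 14, led by Fcgr4, Fcrl5 and Cd72, held Hpgds at 296 CPM (262 to 333) in 160 barcodes from 15 months and at 107 CPM (46.2 to 211) in 8 barcodes from 3 months, and 136 of those 160 came from 15-month pool 3. No 3-month pool had 10 barcodes of cluster 14, so it gives no comparison of the ages over pools. Without cluster 14 the macrophage-like levels were 163, 159 and 146 CPM at 15 months, against 84.4, 88.3 and 121 CPM at 3 months, still without overlap (log2 difference 0.66, adjusted p = 0.183 by edgeR). Marker lists of 3 other types separated the ages in the same barcodes. Red cell genes summed to 20.9 to 24.3 CPM at 15 months and 517 to 978 CPM at 3 months. Serous cavity macrophage genes summed to 26.4 to 92.1 and 13.6 to 21.4 CPM, and mast cell or basophil genes to 0.961 to 19.2 and 0 to 0.823 CPM. The part of these 3 lists in the difference was not tested. With barcodes over 1% haemoglobin left out, 1 at 15 months and 32 at 3 months over all classes, the log2 difference was 0.78 again (adjusted p = 0.133 by edgeR). Red cell UMIs in barcodes under 1% stay in that fit, so it does not test the part of the red cell list.

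**Figure D2:**
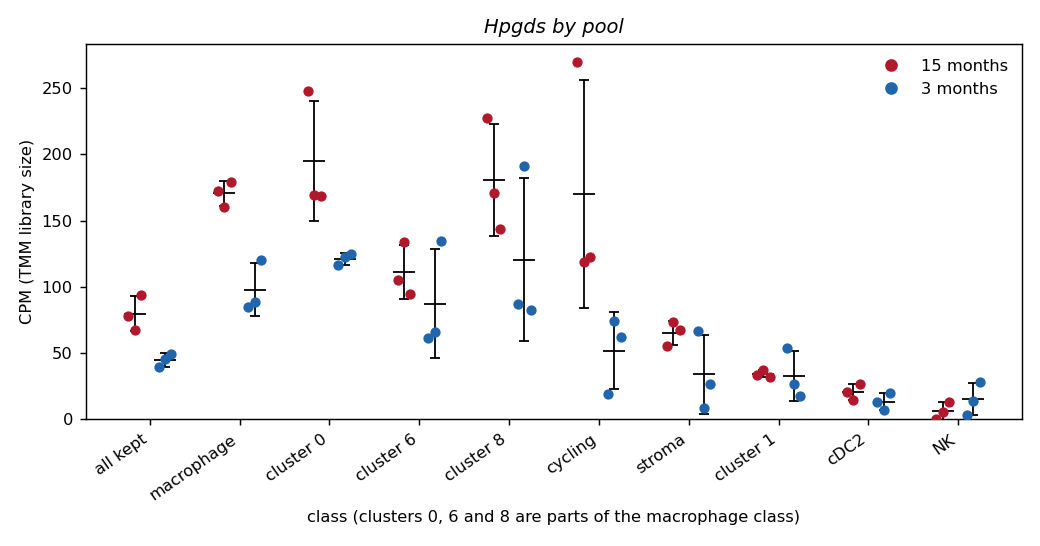
Hpgds level per pool (points) in CPM by TMM library size, with mean and SD as bars, for all kept barcodes, the macrophage-like class, its clusters 0, 6 and 8, and 5 other classes. The 3 points at 15 months lie above the 3 at 3 months in all kept barcodes, macrophage-like, cluster 0 and cycling barcodes, and overlap in the others.

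In the cycling class Hpgds was 270, 118 and 122 CPM at 15 months, against 18.8, 73.9 and 62.2 CPM at 3 months, from 7 to 252 UMIs in a pool. The ages did not overlap, and the log2 difference of 1.68 ± 0.48 had an adjusted p of 0.326 by edgeR (0.0212% of genes passed there). Ptgs1 in the same class was 39.1, 69.5 and 48.3 CPM at 15 months, against 32.2, 7.39 and 29.7 CPM at 3 months, also without overlap, from as few as 2 UMIs in a pool (log2 1.19 ± 0.39, adjusted p = 0.356 by edgeR). The cycling class is set by cell cycle genes and can hold dividing cells of several types. In it the resident macrophage list summed to 99.6 to 150 CPM at 15 months and 13.5 to 69.3 CPM at 3 months, the stroma list to 19.2 to 274 and 0 to 3.66 CPM, the platelet list to 667 to 1357 and 365 to 660 CPM, and the red cell list to 11.5 to 19.9 and 326 to 11069 CPM. Their part in the Hpgds and Ptgs1 differences was not tested. In stroma-like barcodes Hpgds was 55, 73.1 and 67.2 CPM at 15 months, against 66.6, 8.38 and 26.6 CPM at 3 months, with overlap (log2 0.98 ± 0.43, adjusted p = 0.508 by edgeR). Over all kept barcodes it was 77.7, 67.6 and 93.7 CPM at 15 months, against 39.1, 45.8 and 49.2 CPM at 3 months (log2 0.83 ± 0.15, adjusted p = 0.0835 by edgeR, with 0.224% of genes passing), where the share of cells in each class and the level in a cell cannot be told apart. Macrophage-like barcodes made up 19.7 to 34.2% of a pool at 15 months and 24.4 to 34.2% at 3 months.

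Of the prostaglandin synthases, Ptgds and Ptges lay mostly outside the myeloid classes. Ptgds, the lipocalin-type prostaglandin D synthase, had only 97 UMIs, of which 59 lay in the 38 epithelial-like barcodes (50.7 CPM, 38.6 to 65.5) and 26 in the 86 theca or luteal-like barcodes (16.3 CPM, 10.7 to 23.9). A single macrophage-like barcode of 1588 had a Ptgds UMI. Hpgds, which makes the same product, was seen in the Ptgds classes too, with 43 UMIs in epithelial-like and 28 in theca or luteal-like barcodes. The epithelial-like class joined 2 clusters. Cluster 22 held 23 Ptgds UMIs and 1 Hpgds UMI in 23 barcodes, and cluster 24, led by Ovgp1, held 36 and 42 in 15 barcodes. The 2 genes were thus apart in the macrophage-like class and in cluster 22, but not in cluster 24 or the theca or luteal-like class.

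Ptges, the inducible prostaglandin E synthase, had 232 UMIs, 116 of them in cluster 17, named endothelial-like, and 65 in stroma-like barcodes. Of the myeloid classes, the serous cavity macrophage-like one held 11, in 8 of its 50 barcodes. Its summed level of 14.6 CPM was near the stroma-like mean of 16.8 ± 6.57 CPM. The 1588 macrophage-like barcodes held 13. At a finer clustering, examined after the values were seen, cluster 17 divided into 85 endothelial-like barcodes with 11 Ptges UMIs (9.94 CPM, 4.96 to 17.8) and 48 granulosa-like barcodes with 105 (112 CPM, 91.8 to 136). The granulosa-like part had 1992 CPM of the inhibin subunit Inha and 2.14 CPM of Pecam1, and the endothelial-like part had 83.1 and 387 CPM, so that most of this class's Ptges lay beside follicle markers. In the granulosa-like part Ptges was 189, 231 and 251 CPM at 15 months, from 4, 9 and 1 barcodes, against 50.5, 92.8 and 73.8 CPM at 3 months, from 7, 7 and 20 barcodes. These pools were too small for a test. In stroma-like barcodes Ptges was 23.9, 20.3 and 23.4 CPM at 15 months, against 8.32, 12.6 and 12.3 CPM at 3 months, from 10, 28 and 16 UMIs against 2, 3 and 6. The ages did not overlap, but the counts were below the filter for a test. In the same barcodes the epithelial list summed to 18.9 to 68.3 CPM at 15 months and 0 to 4.11 CPM at 3 months, the neutrophil list to 88.7 to 120 and 62.1 to 86.3 CPM, and the red cell list to 17.5 to 39.1 and 355 to 497 CPM. Their part in the Ptges difference was not tested. Over cluster 17 as a whole the older pools had 88, 72.1 and 22.2 CPM and the younger pools 40.3, 62.4 and 51.4 CPM, with overlap (log2 0.31 ± 0.42, adjusted p = 0.756 by edgeR).

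Alox5, 5-lipoxygenase, was sparse, with 441 UMIs in 310 barcodes. Its level was highest in mast cell or basophil-like barcodes, at 252 CPM (179 to 345), followed by serous cavity macrophage-like barcodes at 91.5 CPM (71.2 to 116), and, among classes measured over 6 pools, by the neutrophil-like class at 78.7 ± 24.8 CPM and non-classical monocyte-like barcodes at 22.2 ± 5.44 CPM. The neutrophil-like level stood above the non-classical one in 6 of 6 pools. Macrophage-like barcodes had 3.22 ± 0.451 CPM, and none of 410 NK-like barcodes had a UMI. At their median depth of 3533 UMIs this allows a share of barcodes with an Alox5 UMI of up to 0.928% (upper Wilson bound, counting error only) and sets no limit on the share of cells that express so sparse a gene.

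Alox5ap, by contrast, was found across the myeloid classes, with 30321 UMIs in 4711 of 6281 barcodes. Its level was 1952 ± 405 CPM in neutrophil-like, 1064 ± 236 CPM in classical monocyte-like, 884 ± 127 CPM in cDC1-like, 813 ± 114 CPM in non-classical monocyte-like and 413 ± 42.1 CPM in macrophage-like barcodes (SD over 6, 5, 4, 6 and 6 pools). The order from classical monocyte-like to non-classical monocyte-like did not hold beyond the spread, while neutrophil-like stood above classical monocyte-like in 5 of 5 pools and cDC2-like, at 705 ± 113 CPM, above macrophage-like in 6 of 6. cDC1-like barcodes thus had Alox5ap with no Alox5 UMI in the 4 pools measured. Mast cell or basophil-like barcodes had 2250 CPM (2020 to 2500). The lowest level was 20.9 ± 20.8 CPM in NK-like barcodes, where 3.9% had a UMI, against 88.5% of neutrophil-like barcodes at a lower median depth.

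Lta4h ran the other way in NK-like and neutrophil-like barcodes, while the order of the other classes was not reversed. The leukotriene A4 hydrolase was highest in NK-like barcodes, at 60.6, 105 and 78 CPM at 15 months and 73.8, 98.7 and 69.5 CPM at 3 months. Its lowest mean was that of neutrophil-like barcodes, at 14.5 ± 16.9 CPM, from 16 UMIs in 598 barcodes. That mean was not below the B cell-like one, 17.7 ± 4.67 CPM, beyond the spread, with B cell-like higher in 2 of 4 pools. The NK-like mean of 80.8 ± 17.2 CPM stood above the non-classical monocyte-like mean of 59.7 ± 9.15 CPM in 6 of 6 pools. At 1000 UMIs a barcode, 9.02% (6.62 to 12.2%) of NK-like and 1.67% (0.911 to 3.05%) of neutrophil-like barcodes had a Lta4h UMI. Over all kept barcodes Lta4h varied little between pools, at 30.4 to 32.9 CPM at 15 months and 32.3 to 35.3 CPM at 3 months.

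**Figure D3:**
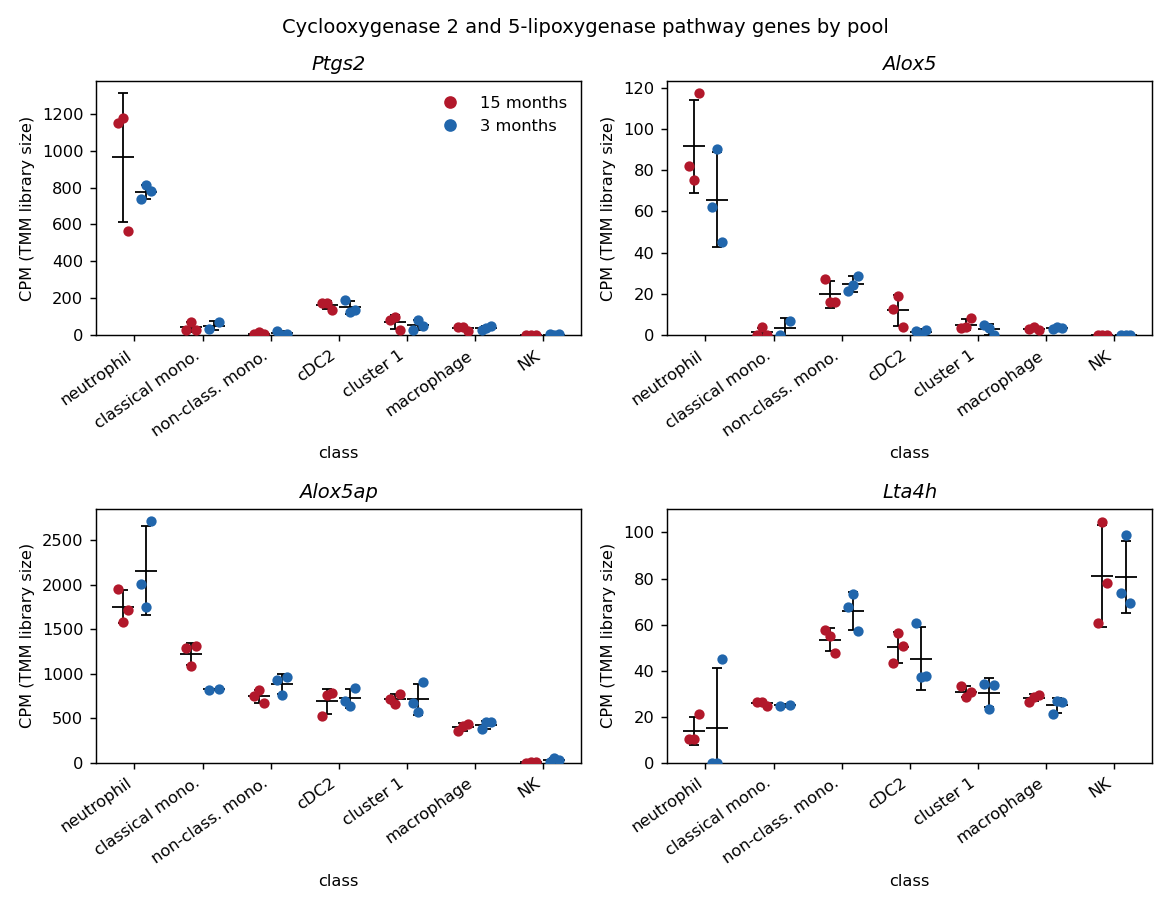
Ptgs2, Alox5, Alox5ap and Lta4h per pool (points) in CPM by TMM library size, with mean and SD as bars, in 7 classes; each axis starts at 0. Ptgs2, Alox5 and Alox5ap are highest in the neutrophil-like class and Lta4h in the NK-like class, and the ages overlap in most classes.

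Alox5ap did not pass for age in any class. In classical monocyte-like barcodes it was 1284, 1081 and 1306 CPM at 15 months, against 818 and 828 CPM in the 2 younger pools with enough barcodes, and the ages did not overlap. The class was made of clusters 10 and 11. Cluster 10 was 5%, 40.6% and 12.9% of it in the 15-month pools and 82.6% and 82.8% in those 2 younger pools. Within cluster 11 Alox5ap was 1457, 1375 and 1528 CPM at 15 months, against 1534 and 1192 CPM at 3 months, with overlap. In non-classical monocyte-like barcodes it was 746, 820 and 665 CPM at 15 months, against 931, 757 and 960 CPM at 3 months, with overlap (log2 -0.28 ± 0.13, adjusted p = 0.433 by edgeR).

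Alox5 was 11, 9.19 and 6.61 CPM over all kept barcodes at 15 months, against 4.27, 4.63 and 3.67 CPM at 3 months, without overlap. The log2 difference was 1.11 ± 0.24, with an adjusted p of 0.114 by edgeR and 0.0378 by DESeq2, and 0.0378 to 0.264 over the 19 alternatives. Neutrophil-like barcodes, 1 of its main sources, made up 10.2 to 12.6% of a pool at 15 months and 2.71 to 9.93% at 3 months, and mast cell or basophil-like barcodes 0 to 1.15% and 0 to 0.307%; the part of these shares in the difference was not tested. The serous cavity macrophage-like class held 69 of the 441 Alox5 UMIs. Without it Alox5 was 9.72, 7.83 and 6.03 CPM by all UMIs at 15 months, against 3.95, 3.95 and 3.33 CPM at 3 months, still without overlap. Inside the neutrophil-like class Alox5 was 82.2, 75.2 and 117 CPM at 15 months, against 62, 90.4 and 45 CPM at 3 months, and the ages overlapped (log2 0.47 ± 0.47, adjusted p = 1 by edgeR). In cDC2-like barcodes it was 12.7, 19 and 4.06 CPM at 15 months, from 5, 47 and 2 UMIs, against 1.84, 0 and 2.51 CPM at 3 months, from 1, 0 and 3 UMIs, below the filter for a test. With no filter it passed (log2 2.98, adjusted p = 0.000781 by edgeR), a setting that passed 152 genes in this class against 11 in the main one, and 47 of the older UMIs lay in 1 pool.

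Ltc4s, leukotriene C4 synthase, and Alox15 marked the serous cavity macrophage-like class, a cluster of 50 barcodes led by Saa3 and Prg4. Gata6, the regulator that defines these macrophages, was in 24 of them. The size of the class depended on the clustering, with 43 barcodes at a coarser and 125 at a finer one, and the values given are those of the 50. All 50 barcodes had Ltc4s and 41 had Alox15. Ltc4s was 1133 CPM there (1058 to 1211), against a pool mean of 38.5 ± 15.6 CPM in macrophage-like barcodes, which was not beyond the spread of the 28.4 ± 27.6 CPM in neutrophil-like barcodes. The 50 barcodes are 0.796% of those kept and held 854 of the 2059 Ltc4s UMIs and 1296 of the 1552 Alox15 UMIs. By age, the class had Alox15 at 1682 CPM (1584 to 1783) in 42 barcodes from 15 months and at 1986 CPM (1710 to 2294) in 8 barcodes from 3 months. By pool it was 1656, 1771 and 1087 CPM at 15 months, against 2335 and 1158 CPM in the 2 younger pools that had the class.

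The other Alox15 UMIs lay in few barcodes. Cluster 24, an epithelial-like group of 15 barcodes led by the oviduct glycoprotein Ovgp1, held 184 UMIs (254 CPM, 219 to 294), and 14 of its barcodes came from 15-month pool 2. Mast cell or basophil-like barcodes held 21 UMIs, all in the Cma1-low ones, and 1 barcode of cluster 17 held 41, together with 81 UMIs of Prg4 and 73 of Saa3. Outside these classes 10 of 6020 barcodes had an Alox15 UMI, 1 each. Macrophage-like barcodes had Alox15 in 4 of 1588. Over all kept barcodes Alox15 was 60.5, 36.9 and 7.70 CPM by all UMIs at 15 months, against 0.172, 33.1 and 3.90 CPM at 3 months, and the pools had 13, 26 and 3 against 0, 5 and 3 serous cavity macrophage-like barcodes. The 3 highest pools were those with 5 or more of these barcodes, and the ages overlapped (log2 1.49 ± 1.09, adjusted p = 0.481 by edgeR). Without the class the levels were 8.28, 8.07 and 0.246 CPM at 15 months, against 0.172, 0 and 0.230 CPM at 3 months. Ltc4s over all kept barcodes was 47.2, 39.5 and 29.9 CPM by all UMIs at 15 months, against 15.5, 35.9 and 30.5 CPM at 3 months, and without the class 16.4, 22.1 and 17.2 CPM against 15.5, 18.0 and 27.6 CPM.

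The 9 serous cavity macrophage-like barcodes with Alox15 at 0 differed in other genes as well, in a description made after the values were seen. All 9 had Retnla, the resistin-like protein of alternatively activated macrophages, with a median of 299 UMIs, against 5 of the 41 with Alox15. Prg4 was seen in 2 of the 9 and in all 41, and Gata6 in none of the 9 and in 24 of the 41. Ltc4s was found on both sides, at 1254 CPM in the 9 and 1098 CPM in the 41. Alox5ap was 963 and 1142 CPM, and Ptgs1 178 and 231 CPM.

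**Figure D4:**
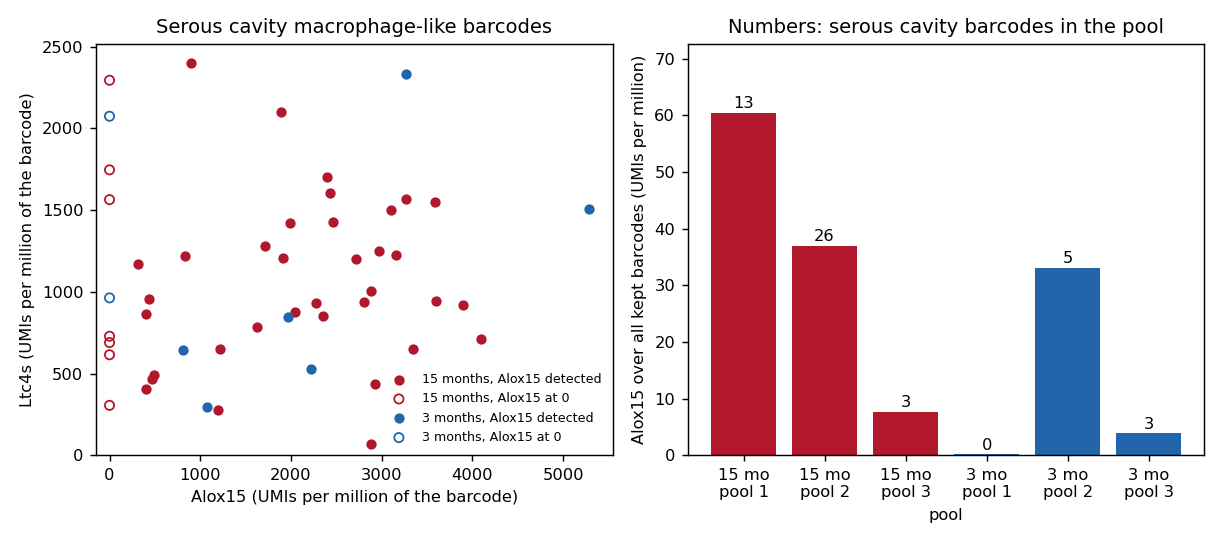
Left, Alox15 against Ltc4s in each of the 50 serous cavity macrophage-like barcodes, as CPM of that barcode, with open circles for the 9 barcodes with Alox15 at 0. Right, Alox15 over all kept barcodes of each pool, with the number of serous cavity macrophage-like barcodes above each bar; the bar is near 0 in 3-month pool 1, which had none.

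Outside the serous cavity class the Ltc4s means at 15 months were below those at 3 months in macrophage-like barcodes and in their cluster 8, with no call by a test. In macrophage-like barcodes it was 23.4, 47.7 and 23.4 CPM at 15 months, against 38.4, 33.8 and 64.1 CPM at 3 months, with overlap (log2 -0.51 ± 0.32, adjusted p = 0.499 by edgeR). In cluster 8 it was 22.2, 43.9 and 23.3 CPM at 15 months, against 63.5, 222 and 127 CPM at 3 months, without overlap, from 4, 36 and 6 UMIs against 8, 22 and 43, and clusters were not tested. In cluster 6 the order was the opposite, with means of 14.6 ± 1.64 CPM at 15 months and 7.76 ± 5.78 CPM at 3 months. These clusters held few of the 713 macrophage-like Ltc4s UMIs, 119 in cluster 8 and 71 in cluster 6. Cluster 0 held 508, at 56.6 ± 20.2 CPM over 6 pools, and is not given by age here. Other classes also had the higher mean at 15 months. Ltc4s in cycling barcodes was 49.7, 38.5 and 11.4 CPM at 15 months, against 8.06, 3.69 and 16.2 CPM at 3 months, with overlap (log2 1.68, adjusted p = 0.0494 by edgeR with no filter on low counts, and below the filter otherwise). In stroma-like barcodes it was 21.5, 26.1 and 13.2 CPM at 15 months, against 12.5, 4.19 and 16.4 CPM at 3 months, with overlap. The macrophage-like age effect minus the cycling one was -2.02 ± 0.55 on the log2 scale (adjusted p = 0.451 by edgeR), minus the neutrophil-like one -2.14 ± 0.94 (0.650) and minus the stroma-like one -1.25 ± 0.49 (1).

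The 10 genes were tested for age in all kept barcodes and in 9 classes with at least 10 barcodes in every pool, wherever the count passed edgeR's filter. That gave 40 tests over 9 genes, Ptgds being below the filter throughout. None passed an adjusted p of 0.05 by edgeR, 7 had an unadjusted p under 0.05, and 3 passed by DESeq2 (Hpgds in all kept and in macrophage-like barcodes, and Alox5 in all kept barcodes). Of all genes, 2422 of 12028 in all kept barcodes and 1218 of 8725 in macrophage-like barcodes had an unadjusted p under 0.05. In cluster 17 they were 645 of 3676 genes and in NK-like barcodes 477 of 3233, shares above the macrophage-like one. Shares were lower in the other classes, with 588 of 5040 genes in cDC2-like and 403 of 3578 in non-classical monocyte-like barcodes. Cycling barcodes had 501 of 4718, stroma-like 589 of 6054, cluster 1 255 of 4785 and neutrophil-like 74 of 2095. The 7 of 40 lie inside the range of these shares. In all kept and in macrophage-like barcodes many more genes passed by the other test. DESeq2 passed 439 genes in all kept and 69 in macrophage-like barcodes, against 27 and 8 by edgeR. Few genes of any kind passed: 0.224% of those tested in all kept barcodes, 0.0917% in macrophage-like, 0.239% in neutrophil-like, 0.218% in cDC2-like, 0.531% in non-classical monocyte-like, 0.619% in NK-like, 0.146% in cluster 1, 0.0212% in cycling, 0.734% in cluster 17 and 0.0165% in stroma-like barcodes. The median log2 difference of the 9 genes tested in all kept barcodes was 0.40, beside 0.02 over all 12028 genes. In macrophage-like barcodes it was 0.04 over 6 genes, beside 0.00 over all. No age effect of a member differed past the threshold between macrophage-like barcodes and another class, in 52 interaction tests over 8 pairs of classes (7 with unadjusted p under 0.05, lowest adjusted p = 0.451 by edgeR). Of all genes, 0.306% did against NK-like, 0.0455% against cDC2-like, 0.0373% against neutrophil-like, 0.0193% against stroma-like and 0.011% against cycling barcodes, and 0% against the other 3.

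The genes around the set were also read from 6 lists, 50 genes in all, and 1 of them passed, in all kept barcodes. Fpr2, a receptor for lipoxins and formyl peptides, was 22.6, 17.5 and 25.2 CPM over all kept barcodes at 15 months, against 8.35, 4.63 and 6.27 CPM at 3 months (log2 1.75 ± 0.23, adjusted p = 0.0401 by edgeR). Among the 14 classes measured by pool it was highest in neutrophil-like barcodes, at 167 ± 76.3 CPM. That class had a larger share in the older pools, as given above. The part of that share in the Fpr2 difference was not tested. Inside the neutrophil-like class Fpr2 was 180, 315 and 122 CPM at 15 months, against 116, 120 and 150 CPM at 3 months, with overlap (log2 0.60 ± 0.40, adjusted p = 1 by edgeR). In non-classical monocyte-like barcodes Fpr2 was 64.4, 94.0 and 104 CPM at 15 months, against 35.5, 0 and 49.0 CPM at 3 months, without overlap (log2 1.25 ± 0.38, adjusted p = 0.181 by edgeR). In macrophage-like barcodes it was 14.8, 5.77 and 38.0 CPM at 15 months, against 6.00, 4.30 and 5.06 CPM at 3 months, with overlap (log2 1.85 ± 0.70, adjusted p = 0.293 by edgeR). Without cluster 14 the log2 difference over all kept barcodes was 1.46 and the call was lost (adjusted p = 0.0731 by edgeR). Leaving out 15-month pool 1 or 3, or any 3-month pool, lost the call too, with log2 differences of 1.58 to 1.94 and adjusted p = 0.144, 0.107, 0.126, 0.154 and 0.0510 by edgeR; the fit without 15-month pool 2 kept it (0.0231). In all kept barcodes the filter left 5 of 9 phospholipases A2, 7 of 7 other prostanoid synthases, 4 of 10 other leukotriene and lipoxygenase enzymes, 7 of 7 genes of export and breakdown and 5 of 9 prostanoid receptors, none of which passed in either direction there or in a class, and 5 of 8 leukotriene and lipid mediator receptors, of which Fpr2 passed.

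The genes most like each member were sought among 8754 genes over the means of 14 classes, as Pearson's r of log2(CPM + 10). Classes share libraries and depth, so r is a description only. The 14 classes leave out the serous cavity macrophage-like class, where Ltc4s and Ptgs1 were highest. They also leave out the mast cell or basophil-like class, where the summed levels of Alox5, Alox5ap and Ptgs2 were highest. For these genes r does not cover the class with the highest level. Hpgds was closest to Npl (r = 0.959), an enzyme of sialic acid breakdown, Folr2 (0.946), a folate receptor of tissue macrophages, and Hebp1 (0.931). Ptgs2 was closest to Ifit3 (0.930), Isg15 (0.925) and Rsad2 (0.917), all interferon-stimulated genes. Alox5 was closest to Hcar2 (0.949), Acsl1 (0.948) and Fpr1 (0.947), and Alox5ap to Fes (0.935), Lrrc25 (0.915) and Picalm (0.903). Lower maxima were found for Ptgs1, with Slc45a4 (0.907), Nhlrc3 (0.886) and Tpcn2 (0.863), for Ltc4s, with Gclm (0.881), Ncoa4 (0.844) and Cd63 (0.831), and for Lta4h, with Arl6ip5 (0.859), Mta3 (0.853) and Prkch (0.851). For Ptges and Alox15 the highest class mean was that of cluster 17, which for Alox15 came from 1 barcode, so their values are not given, and Ptgds had no class mean of 20 CPM.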

How the data were processed

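The authors deposited raw UMI counts, per gene and per hashtag, from Cell Ranger's filtered barcodes. Version 4.0.0 stands in the file headers, while the submitters' processing notes list 7.0.0, FastQC 0.11.4 and mm10. Barcodes were clustered in scanpy 1.11.5 (2000 variable genes, 30 components, 15 neighbours, Leiden resolution 0.6) and named from marker lists; clusters led by genes of a macrophage state were kept in the macrophage-like class. Doublets across pools fell to the hashtag rule; scrublet's own threshold marked 3 barcodes in each library and was not used. Raw counts were summed by pool and class and tested as 15 over 3 months with edgeR 4.0.16 (quasi-likelihood, filterByExpr, TMM, Benjamini-Hochberg over all genes of the class, age the only term); cluster 1 was added to the tested classes after its values were seen. Class levels are described and not tested. Pools of an age differed by more than counting noise (chi-square per degree of freedom 10 to 31.1). Intervals are 95% Poisson for sums and Wilson for shares. The members and lists were chosen with earlier results of these data known. In design terms, the named genes were all 10 members, pathway genes past the threshold or among the 2 highest of a list, and the 3 genes most like each member. Dpep2 had 2 gene IDs and was left out. Alternatives were DESeq2 1.42.0, RLE size factors, no filter, HTODemux (Seurat 5.3.0), stricter filters, other resolutions, a replicate block and leaving out each pool.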

Additional observations from a re-analysis of the deposited data

How the results depend on the processing

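Past the main setting, 9 results on the 10 genes crossed the threshold. With DESeq2 the log2 difference was 0.82 for Hpgds and 1.10 for Alox5 in all kept barcodes and 0.78 for Hpgds in macrophage-like barcodes. With no filter on low counts it was 0.83 for Hpgds in all kept, 0.79 in macrophage-like and 1.67 in cycling barcodes, and 1.20 for Ptgs1 and -1.48 for Ptgs2 in cycling barcodes. That setting also passed 3 tests the filter had removed, Alox5 in cDC2-like (2.98), Ltc4s in cycling (1.68) and Alox15 in cluster 17 (7.36), the last from 1 barcode. The macrophage-like Hpgds difference was 0.68 to 0.96 when any pool was left out. Fpr2 also lost its call with HTODemux (1.70, adjusted p = 0.0555 by edgeR).

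Differences near 0 changed sign, none past the threshold, and the cause was not tested. In all kept barcodes Ptgs2 was -0.0584 under the strict barcode filter, and Ptges was -0.00671 with RLE size factors, -0.83 with HTODemux, -0.32 with a top hashtag of 5 times the second and -0.0176 without barcodes over 1% haemoglobin. With HTODemux, Alox5ap in cDC2-like barcodes was 0.0211, Ptgs1 in macrophage-like -0.19 and Lta4h in stroma-like -0.0700. Without the highest scrublet scores Alox5ap was 0.0245 in cDC2-like and 0.0417 in cluster 1, Lta4h 0.0124 in cluster 1 and Ptgs2 0.000602 in macrophage-like barcodes. Without haemoglobin-rich barcodes Alox5ap in cycling barcodes was 0.0176. At Leiden resolution 0.3 Ptgs1 and Lta4h in macrophage-like barcodes were -0.0498 and -0.0250, and with the members among the variable genes Ptgs1 was -0.0445. Leaving out each pool gave ranges across 0 in all kept barcodes for Ptgs2 (-0.0181 to 0.50) and Ptges (-0.27 to 0.33), in NK-like for Lta4h (-0.11 to 0.31), in cDC2-like for Alox5ap (-0.14 to 0.0893), in cluster 1 for Ptgs2 (-0.22 to 0.74), Alox5ap (-0.17 to 0.19), Hpgds (-0.15 to 0.75) and Lta4h (-0.21 to 0.0645), in cycling for Alox5ap (-0.11 to 0.0659) and Lta4h (-0.74 to 0.0669), in cluster 17 for Alox5ap (-0.21 to 1.68), in macrophage-like for Ptgs2 (-0.33 to 0.20) and Ptgs1 (-0.14 to 0.48), in neutrophil-like for Ptgs2 (-0.00666 to 0.43) and in stroma-like for Alox5ap (-0.28 to 0.64).

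Genes of any kind past the threshold numbered 27 in all kept barcodes, 20 in NK-like, 11 in cDC2-like, 7 in cluster 1, 1 in cycling, 27 in cluster 17, 8 in macrophage-like, 5 in neutrophil-like, 19 in non-classical monocyte-like and 1 in stroma-like. DESeq2 gave 439 in all kept, 33 in NK-like, 24 in cDC2-like, 5 in cycling, 67 in cluster 17, 69 in macrophage-like and 11 in stroma-like. With no filter there were 93 in all kept, 106 in NK-like, 152 in cDC2-like, 44 in cluster 1, 172 in cycling, 431 in cluster 17, 398 in macrophage-like, 14 in neutrophil-like, 43 in non-classical monocyte-like and 171 in stroma-like. HTODemux gave 7 in all kept, 10 in NK-like and 9 in stroma-like. Stroma-like had 26 at resolution 0.3 and 12 without the highest scrublet scores, and cDC2-like had 5 at resolution 1.0. Without haemoglobin-rich barcodes NK-like had 34 and cycling 5, and with the strict filter 39 and 3. Leaving out each pool gave 0 to 141 in all kept, 7 to 45 in NK-like, 1 to 25 in cDC2-like, 1 to 74 in cycling, 3 to 47 in cluster 17, 4 to 53 in macrophage-like, 3 to 5 in neutrophil-like, 6 to 44 in non-classical monocyte-like and 1 to 3 in stroma-like barcodes.

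The same pool number correlated at -0.042, 0.096 and 0.085 between ages, so numbers do not pair pools. With the pool number as a replicate block, the counts were 15 in all kept, 86 in NK-like, 11 in cluster 1, 57 in cluster 17 and 20 in macrophage-like. Alox5ap and Lta4h in cluster 1 became 0.00698 and 0.0150, and Hpgds in macrophage-like was 0.79.

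Of the alternative class levels, 430 stayed within 1 SD and 30 did not. Ptges in the endothelial-like class was 6.88 CPM at resolution 1.0, where granulosa-like barcodes leave it, against 56.1 CPM. Hpgds in the classical monocyte-like class was 67 CPM at resolution 0.3 and 58.5 CPM with HTODemux, against 5.85 CPM. The class did not hold the same barcodes there. In these settings a cluster of 531 and of 547 barcodes, with Spp1, Arg1, Gpnmb and Fabp5 among its leading genes, took the classical monocyte name. In the main setting Gpnmb, Fabp5 and Spp1 led cluster 6 of the macrophage-like class. The serous cavity macrophage-like class had 50 barcodes in the main setting, 43 at resolution 0.3 and 34 with HTODemux. At resolution 1.0 it had 125, with Retnla among its leading genes, and its shares of Ltc4s and Alox15 UMIs were not taken again there. Scrublet's own threshold was not run as an alternative, since it marked 3 barcodes in each library; leaving out its highest scores and leaving out cluster 14 were chosen after seeing the data. Cluster 1 could not be tested after re-clustering, nor cDC2-like and cluster 17 at resolution 0.3, cluster 17 at 1.0, nor neutrophil-like under the strict filter. Depth limits Alox5, Ptges and Ptgds most.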

Other observations

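The enzymes and receptors on either side of the 10 genes also differed between classes. They were ranked only over the 14 classes measured by pool. Left out were, among others, the serous cavity macrophage-like, mast cell or basophil-like, epithelial-like and theca or luteal-like classes, so highest means highest of those 14. Cyp4f18, which inactivates leukotriene B4 by hydroxylation, was highest in neutrophil-like barcodes, at 468 ± 160 CPM (SD, n = 6 pools). Hpgd, which inactivates prostaglandins, was highest in non-classical monocyte-like barcodes, at 429 ± 194 CPM. Tbxas1, thromboxane synthase, had its highest level in macrophage-like barcodes, at 104 ± 21.5 CPM, as did the lysosomal phospholipase Pla2g15, at 73.8 ± 9.15 CPM. The cytosolic phospholipase Pla2g4a, the prostaglandin E synthase Ptges3, which is also a co-chaperone, and Akr1b3 were highest in the cycling class, at 39.1 ± 8.63, 289 ± 64.6 and 145 ± 26.9 CPM. Mgst3 was highest in cluster 17, at 87.7 ± 29.7 CPM, and Ggt5, which converts leukotriene C4 to D4, in neutrophil-like barcodes, at 64.8 ± 28 CPM.

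Among the receptors, Ptger4, a prostaglandin E2 receptor, was highest in mature dendritic cell-like barcodes, at 181 ± 42.2 CPM (n = 5 pools), and Ptger2 in stroma-like barcodes, at 35.9 ± 10.6 CPM. Ltb4r1, the high-affinity leukotriene B4 receptor, was highest in classical monocyte-like barcodes, at 155 ± 48.2 CPM (n = 5 pools), and Cysltr1, a cysteinyl leukotriene receptor, in cDC2-like barcodes, at 101 ± 21.6 CPM. Ptgdr2, a receptor for the prostaglandin D2 that Hpgds makes, was at 0 in every one of the 14 classes measured by pool. Those 14 do not include the mast cell or basophil-like class, for which no Ptgdr2 level is given.

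Inside cluster 17 the other genes of the pathway divided differently from Ptges. The prostacyclin synthase Ptgis was 201 CPM (175 to 229) in the 85 endothelial-like barcodes and 58.8 CPM (44.3 to 76.5) in the 48 granulosa-like ones, the transporter Slco2a1 299 CPM (268 to 333) and 1.07 CPM (0.0271 to 5.96), and Alox12 62.4 CPM (48.5 to 78.9) and 0.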
